A study of Mus musculus with 10 samples.

Results

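The genes described here build and serve the base and the transport system of the primary cilium. They are 42 genes of the transition zone, the intraflagellar transport (IFT) complexes A and B, their kinesin-II motor, the BBSome and 3 small GTPases of the ARL family. Further subunits of these complexes stand in another list, so counts by role cover the listed genes only. Where several probe sets were annotated to a symbol alone, the one that was brightest on average over the 10 arrays stood for the gene, so measured levels chose the probe sets. Of the 42 genes, 39 had such a probe set, and 35 of those lay above the limit of 4.59 log2 units, under which the dimmest 30% of genes were left out. The 35 stand among 12736 tested genes of the array. Tmem67, Bbs5, Bbs7 and Ttc8 lay below the limit, with means between 3.01 and 3.93 log2 units, while the dimmest gene above it, Bbs2, had a mean of 4.68. Rpgrip1l, Arl6 and Arl13b were not analysed here.

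Expression was measured in leukemic cells from bone marrow of mice with T cell acute lymphoblastic leukemia (T-ALL), with 5 arrays in each of 2 groups. In the TAM group, secondary recipient mice with leukemia received tamoxifen, which activates the Cre recombinase ROSCreERT2 and deletes CnB1, the calcineurin regulatory subunit whose symbol is now Ppp3r1. In the OIL group they received the corn oil carrier. All leukemias, OIL included, were driven by ICN1, the active intracellular form of NOTCH1, and carried ROSCreERT2 and floxed CnB1 alleles. The comparison asks which transcripts differ once calcineurin is lost. The labels give no mouse age. They state that over 50% of marrow cells were leukemic and that leukemic cells were sorted by a fluorescent marker. Each group held the labels 204, 206, F3, F3.1 and F3.2. Whether arrays come from separate mice is not stated in the labels, so p-values measure the spread between these samples only. ROSCreERT2 is known to be expressed from the broadly active Rosa26 locus, and none of the groups used here received tamoxifen without floxed CnB1.

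The primary cilium is a single, immotile membrane extension built on a centriole. Its transition zone gates the entry of membrane proteins, IFT-B with kinesin-II carries cargo to the tip, IFT-A is needed for the way back, and the BBSome carries membrane receptors out. Hedgehog signalling in vertebrates runs through this organelle. Lymphocytes are known to lack a primary cilium, and in T cells several IFT proteins take part in the recycling of the T cell receptor to the immune synapse.

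Genes of this organelle are known targets of the RFX transcription factors, which bind the X-box. The promoter windows, from 250 bases before to 50 bases after the annotated start, were taken from RefSeq (GRCm38.p6), which had one for 38 of the 42 genes. The letters GTNNCC, then 0 to 3 bases, then NGNAAC were searched on both strands, and no other motif was searched. They were found in 15 of the 38 genes (39.5%), against 1606 of 27025 genes with such a window (5.94%). By role they were found in 10 of 15 transition zone genes, 3 of 7 BBSome genes, 2 of 8 IFT-B genes and in none of the 2 IFT-A, 3 kinesin-II and 3 ARL genes. The windows below belong to genes that the results turn on. Each is written 5′ to 3′ on the strand of the gene, with the matched letters in capitals. The capitals of Tmem237 and Tmem216 hold the searched letters when read on the opposite strand.
B9d2, chr7:25680788-25680817, plus strand: aacctgctGTTGCCCCAGCAACagtcgggg
Tmem237, chr1:59120102-59120131, minus strand: tagtcagcGTTGCCATGGCGACgcctccgg
Tmem216, chr19:10555723-10555752, minus strand: tgtacgcaGTTTCCATGGGGACtgaacatg
Tctn1, chr5:122264411-122264432, minus strand: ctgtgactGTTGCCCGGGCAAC
Ahi1, chr10:20952560-20952589, plus strand: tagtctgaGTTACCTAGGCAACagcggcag
Bbs4, chr9:59353464-59353493, minus strand: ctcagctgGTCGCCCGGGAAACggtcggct
The match began 27 bases before the annotated start in Tmem237 and at base 17 to 37 of the transcript in the other 5, and for Tctn1 the window ends with it. The B9d1, Tmem107 and Kif3a windows held no such letters, which says only that these letters are not in those windows.

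Array medians ranged from 5.07 to 5.13 log2 units, and the number of arrays limits the precision. Over probe sets the highest correlation of any 2 arrays, 0.997, joined the F3.1 and F3.2 arrays of the OIL group. With both averaged as 1 sample limma without a block called none of the 35 tested ciliary genes described below, but it called none without averaging either. The fit with a block was not run on averaged arrays, so how its calls depend on these 2 arrays was not tested in this way. The dimmer of the probe sets of Ppp3r1 read 3.18, 3.30, 3.21, 3.02 and 3.59 in the TAM arrays 204, 206, F3, F3.1 and F3.2, against 5.04, 4.49, 6.04, 5.54 and 5.51 in the OIL arrays in the same order of labels. No TAM array reached an OIL array, and the difference was -2.06 (exact permutation p = 0.00794, two-sided, the smallest that 5 against 5 can give). All TAM values lay below the limit for dim genes, as did the mean over the 10 arrays, so the size of the difference is uncertain. The brighter probe set differed by -0.12, and the position of either probe set against the deleted exons was not analysed here. T cell markers had a mean level of 10.70 to 11.15 in TAM arrays and 10.59 to 11.09 in OIL arrays. The mean of 8 myeloid markers was 5.65, 5.41, 7.06, 5.72 and 6.32 in TAM arrays, against 4.86, 5.51, 6.49, 5.85 and 5.40 in OIL arrays, and 4 of the 6 tested were higher in TAM, with none called. Stromal and endothelial markers had means of 5.18 to 6.52 in TAM and 4.99 to 6.27 in OIL arrays, all 4 tested being higher in TAM and none called. The brightest of them, Pdgfrb, averaged 10.65 in TAM and 10.00 in OIL and was higher in all 5 pairs (limma adjusted p = 0.836 without a block, 0.0619 with it). Erythroid and B cell markers had means of at most 5.05 on every array. The part of other cells in the ciliary values was not tested, and in bulk RNA fewer cells of a type and less RNA per cell cannot be told apart.

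Transcripts of the ciliary genes were mostly a little lower in TAM than in OIL leukemias. Of the 35 tested genes, 32 had a lower mean in TAM, where 59% of all tested genes did. Their median difference, TAM minus OIL, was -0.23 log2 units, against -0.03 over all genes, and single genes ranged from -0.63 for B9d1 to 0.52 for Ahi1. By role the median was -0.38 for the 3 IFT-A genes, -0.27 for the 4 BBSome genes, -0.22 for the 3 kinesin-II genes and -0.18 each for the 14 transition zone and the 10 IFT-B genes. Arl3 differed by -0.27. The list was proposed with earlier results of this comparison known, so its direction is a description and supports nothing.

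No ciliary gene was called by limma without a block (Benjamini-Hochberg adjusted p under 0.05), where 0.471% of all genes were. An unadjusted p under 0.05 was reached by 15, of which 14 were lower in TAM, and by 13% of all genes in either direction. Deviations from the group mean correlated between both arrays of a label, but less so for F3.1 (0.585) and only weakly for F3.2 (0.184). In the other group, TAM F3.1 matched OIL F3.2 best, TAM F3.2 matched OIL F3, and OIL F3.2 matched TAM F3.1. The pairing of the F3.1 and F3.2 arrays is therefore uncertain, and the block rests on it. With the label as a block limma called 6 of the 35, against 3.38% of all genes. B9d1, B9d2, Tmem107, Tmem237 and Kif3a were lower in TAM, and Ahi1 was higher. With any 1 label left out of that fit, at most 3 of the 35 were called, and none without F3.1. TAM was lower in all 5 label pairs for 15 genes, as for 13.5% of all genes, and higher in all 5 for Ahi1 alone, as for 8.4% of all genes. Every TAM array lay below every OIL array for B9d2 and Ift52, a pattern of 1.99% of all genes, and none had every TAM array above, against 1.27%. The plot of changes by role shows these differences gene by gene.

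**Figure D1:**
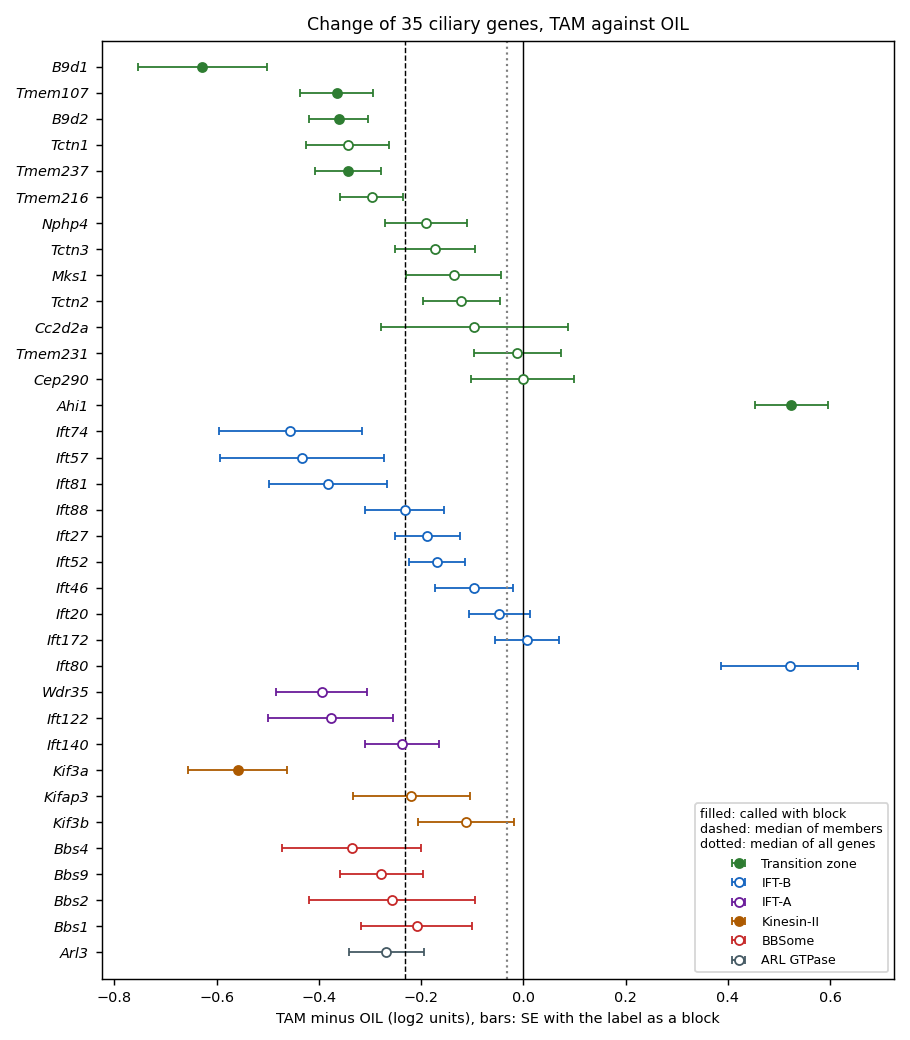
Mean difference TAM minus OIL in log2 units for the 35 tested ciliary genes, grouped by role, with the standard error of the fit that has the label as a block. Filled points are the 6 genes called in that fit, the dashed line is the median of the 35 genes (-0.23), and the dotted line is that of all tested genes (-0.03). All but Ahi1, Ift80 and Ift172 lie below 0.

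In the transition zone, 13 of 14 genes were lower in TAM, 4 of them called with the block, and Ahi1 was higher and called. Of all 12736 tested genes 7517 were lower, and 221 lower and 210 higher ones were called with the block. B9d1, a B9 domain protein of the complex that anchors the gate, read 6.85, 5.98, 6.21, 6.03 and 5.44 in TAM arrays 204, 206, F3, F3.1 and F3.2, against 7.27, 6.26, 6.82, 6.68 and 6.62 in the OIL arrays of those labels. Each TAM array was below its OIL partner, most widely so for F3.2, though the groups overlap across labels. The means were 6.10 ± 0.51 in TAM and 6.73 ± 0.36 in OIL (SD, n = 5 each), and the difference of -0.63 (1.55-fold lower) had an adjusted p of 0.321 in limma without a block and 0.0445 with it. Its partner B9d2, of the same protein family, read 8.25, 8.23, 8.25, 8.01 and 8.25 in TAM, against 8.62, 8.53, 8.55, 8.48 and 8.60 in OIL. The groups did not overlap, and 4 TAM arrays were nearly equal while F3.1 was lower. B9d2 averaged 8.20 ± 0.11 in TAM and 8.56 ± 0.055 in OIL (SD, n = 5 each), a difference of -0.36 with a limma adjusted p of 0.0517 without a block and 0.0243 with it.

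Of the membrane proteins of the gate, Tmem107, which is needed to place other proteins there, read 9.31, 9.33, 8.70, 8.98 and 8.79 in TAM, against 9.89, 9.61, 8.89, 9.32 and 9.22 in OIL. It was lower in TAM for every label, but labels differed by more than the treatments, and 204 and 206 were high in both groups. The difference was -0.37 (limma adjusted p = 0.472 without a block, 0.0427 with it), and its other probe sets above the limit differed by -0.28 and -0.16. With the mean of its probe sets it was not called with the block (limma adjusted p = 0.0679). Tmem237 was likewise highest in 204 and 206, at 7.13, 7.09, 6.33, 6.38 and 6.32 in TAM, against 7.45, 7.27, 6.82, 6.79 and 6.63 in OIL. It differed by -0.34 (limma adjusted p = 0.566 without a block, 0.0390 with it).

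Tmem216, which acts with Tmem237 at the gate, read 7.51, 7.55, 7.39, 7.64 and 7.43 in TAM, against 7.89, 7.81, 7.57, 7.88 and 7.85 in OIL. It was lower for every label, and OIL F3 alone came down into the TAM range. The difference of -0.30 was not called by limma (adjusted p = 0.156 without a block, 0.0509 with it), and its other probe set gave -0.29, also lower in all 5 pairs. Tctn1, a tectonic protein known from mouse Hedgehog signalling, read 6.27, 6.05, 6.26, 6.10 and 6.44 in TAM, against 6.58, 6.37, 6.53, 6.75 and 6.59 in OIL. It was lower for every label, least so for F3.2, and its difference of -0.34 was not called (limma adjusted p = 0.160 without a block, 0.0653 with it). Its relative Tctn3 read 5.80, 6.15, 6.22, 6.04 and 6.29 in TAM, against 6.12, 6.10, 6.38, 6.40 and 6.36 in OIL. The values overlap, its difference was -0.17, and its other probe set above the limit gave 0.10.

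Nphp4, of the nephrocystin module of the gate, read 5.16, 5.43, 5.28, 5.67 and 5.41 in TAM, against 5.66, 5.52, 5.44, 5.69 and 5.59 in OIL. It was lower for every label by small amounts except in 204, with a mean difference of -0.19 that was not called, and its other probe set gave 0.09, so its direction rests on the choice of probe set. The remaining transition zone genes differed by little. Mks1 differed by -0.14 and Tctn2 by -0.12, Cc2d2a by -0.10 with large differences between labels, and Tmem231 and Cep290 by less than their standard errors.

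Ahi1 went the other way. It encodes jouberin, a transition zone protein whose gene is named after a retroviral integration site found in mouse lymphomas. It read 10.15, 10.86, 7.84, 8.16 and 7.89 in TAM arrays 204, 206, F3, F3.1 and F3.2, against 9.62, 10.31, 7.41, 7.41 and 7.52 in the OIL arrays. Each TAM array was above its OIL partner, while 204 and 206 stood far above the other labels in both groups. The means were 8.98 ± 1.42 in TAM and 8.45 ± 1.40 in OIL (SD, n = 5 each). The difference of 0.52 (1.44-fold higher) had an adjusted p of 0.830 in limma without a block and 0.0147 with it. Its other probe set lay below the limit and differed by -0.02, and with the mean of both the difference was 0.25 and not called with the block (limma adjusted p = 0.113).

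**Figure D2:**
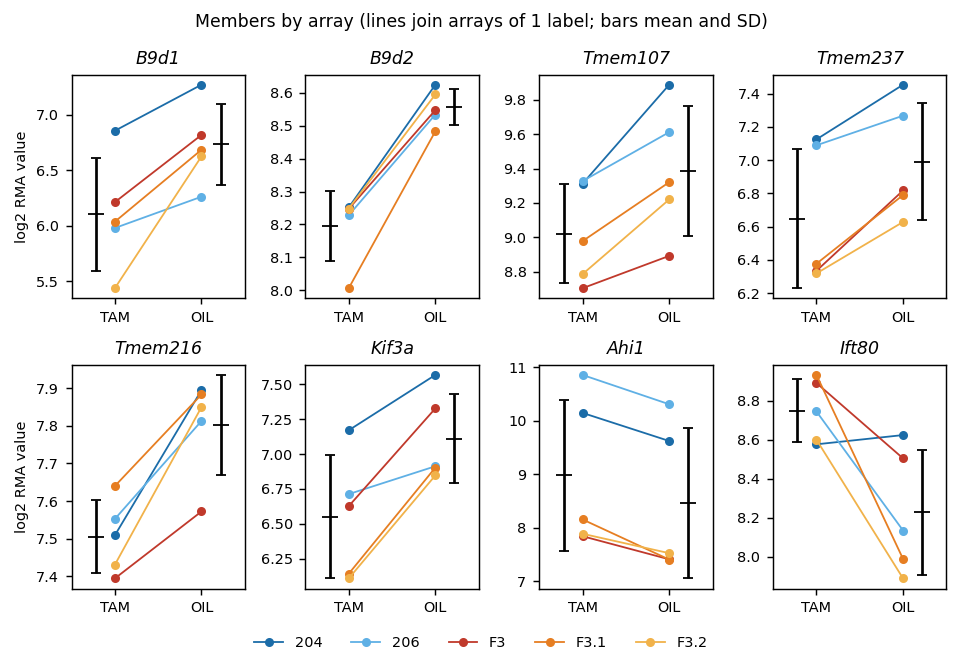
Log2 RMA values of 8 ciliary genes on each array, TAM left and OIL right, with a line joining the arrays of a label and bars for the mean and SD of each group (n = 5). Each panel has its own axis range. The TAM point is the lower end of every line for B9d1, B9d2, Tmem107, Tmem237, Tmem216 and Kif3a, the upper end for Ahi1, and the upper end in 4 of 5 lines for Ift80.

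In IFT-B, 8 of 10 genes were lower in TAM, with 4 of the 8 and 1 of the 2 higher genes at an unadjusted p under 0.05 without a block. None was called in either fit. Of all 12736 tested genes, 986 lower and 670 higher ones reached that p without a block. Ift27, a Rab-like GTPase of the complex, read 9.62, 9.75, 9.50, 9.45 and 9.58 in TAM, against 9.88, 9.76, 9.71, 9.71 and 9.77 in OIL. Every label was lower in TAM, but 206 by almost nothing. Its difference was -0.19 (limma adjusted p = 0.302 without a block, 0.144 with it), with -0.22 and -0.16 from its other probe sets. Ift52, a core subunit, read 7.98, 7.96, 7.91, 7.88 and 7.94 in TAM, against 8.22, 8.08, 8.07, 8.06 and 8.07 in OIL. The groups did not overlap, but the difference was small at -0.17 and not called (limma adjusted p = 0.247 without a block, 0.133 with it).

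The tubulin-binding pair Ift74 and Ift81 differed by -0.46 and -0.38, each lower in 4 of 5 pairs. Ift57, an adaptor subunit also found at the immune synapse of T cells, differed by -0.43 and was lower in all 5 pairs, by 0.030 in 206 and by 1.18 in F3.2. Ift88, the subunit lost in the classical Tg737 mouse mutant, differed by -0.23, Ift46 by -0.10 and Ift20 by -0.05. Ift172 differed by less than its standard error, at 6.25 ± 0.21 in TAM and 6.24 ± 0.19 in OIL (SD, n = 5 each).

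Ift80, a WD repeat subunit of IFT-B, was higher in TAM. It read 8.58, 8.74, 8.89, 8.93 and 8.60 in TAM, against 8.62, 8.13, 8.50, 7.99 and 7.89 in OIL. All labels but 204 had more in TAM, and the OIL arrays were the more spread. The means were 8.75 ± 0.16 in TAM and 8.23 ± 0.32 in OIL (SD, n = 5 each), and the difference of 0.52 was not called (limma adjusted p = 0.177 without a block, 0.0813 with it). Its other probe set gave 0.60 and was higher in all 5 pairs.

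All 3 listed IFT-A genes were lower in TAM at an unadjusted p under 0.05 without a block, as were 986 of all 12736 tested genes. None of the 3 was called. Of the IFT-A subunits in another list, Wdr19 differed by -0.24 and was lower in all 5 pairs, and Ift43 differed by -0.02. Ttc21b went the other way, at 0.39 and higher in all 5 pairs, and none of these was called. Wdr35, a WD repeat subunit also named IFT121, read 7.26, 7.07, 6.59, 6.84 and 6.71 in TAM, against 7.55, 7.17, 7.20, 7.21 and 7.31 in OIL. Every label was lower in TAM, and all TAM arrays but 204 lay below all OIL arrays. Its difference was -0.39 (limma adjusted p = 0.238 without a block, 0.0604 with it), with -0.21 from its other probe set. Ift140 read 7.25, 7.50, 7.18, 7.33 and 7.66 in TAM, against 7.57, 7.63, 7.48, 7.72 and 7.69 in OIL. All 5 labels were lower in TAM, F3.2 hardly so, with a difference of -0.24 that was not called (limma adjusted p = 0.345 without a block, 0.115 with it). Ift122 differed by -0.38 from both of its probe sets above the limit.

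Among the kinesin-II subunits, the motor subunit Kif3a was lower and called with the block. It read 7.17, 6.71, 6.63, 6.14 and 6.11 in TAM, against 7.57, 6.91, 7.33, 6.90 and 6.85 in OIL. Every label was lower in TAM, least in 206 and by 0.70 to 0.76 in the F3, F3.1 and F3.2 arrays. The means were 6.55 ± 0.44 in TAM and 7.11 ± 0.32 in OIL (SD, n = 5 each), a difference of -0.56 (1.47-fold lower, limma adjusted p = 0.310 without a block and 0.0309 with it). Its other 3 probe sets gave -0.34, -0.42 and -0.30, and with the mean of all of them it was not called with the block (limma adjusted p = 0.0584). The second motor subunit Kif3b differed by only -0.11. Kifap3, which binds the motor to cargo, read 8.07, 7.91, 6.09, 7.35 and 6.77 in TAM, against 8.29, 7.73, 6.40, 7.43 and 7.43 in OIL. The labels differed far more than the groups, and its difference was -0.22, with 0.02 from its other probe set.

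All 4 listed BBSome genes that were tested were lower in TAM and none was called. The subunit Bbip1, in another list, differed by -0.03. Bbs4 read 7.32, 7.04, 6.59, 6.73 and 6.91 in TAM, against 7.31, 6.91, 7.18, 7.44 and 7.44 in OIL. The F3, F3.1 and F3.2 arrays were lower in TAM, while 204 and 206 were level or slightly higher. Its mean difference was -0.34 (limma adjusted p = 0.372 without a block, 0.205 with it), with -0.33, -0.25 and -0.25 from its other probe sets. Bbs9, a core subunit, read 6.08, 6.03, 5.97, 5.68 and 5.72 in TAM, against 6.34, 6.13, 6.13, 6.26 and 6.01 in OIL. It was lower for every label with some overlap between groups, and its difference of -0.28 was not called (limma adjusted p = 0.271 without a block, 0.106 with it). Bbs1, which binds the GTPase that recruits the BBSome, differed by -0.21 and Bbs2 by -0.26, each lower in 3 of 5 pairs.

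Arl3, the GTPase that releases lipid-modified cargo inside the cilium, read 9.58, 9.51, 8.98, 9.01 and 9.17 in TAM, against 9.72, 9.65, 9.23, 9.54 and 9.46 in OIL. All 5 pairs were lower in TAM, and 204 and 206 were high in both groups. The difference of -0.27 was not called (limma adjusted p = 0.465 without a block, 0.0918 with it). Over the 14 tested genes with X-box letters, 13 were lower in TAM, with a median of -0.25, and over the 18 tested genes whose window lacked them 17 were lower, with a median of -0.23.

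The size of the difference varied between labels. The median over the 35 genes was -0.22 in 204, -0.07 in 206, -0.25 in F3, -0.37 in F3.1 and -0.28 in F3.2, while that over all genes stayed between -0.07 and -0.01. The number of genes lower in TAM was 26 of 35 in 204 and 22 in 206, against 30 in F3, 31 in F3.1 and 28 in F3.2. The map of pair differences shows that the 206 pair is the palest column.

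**Figure D3:**
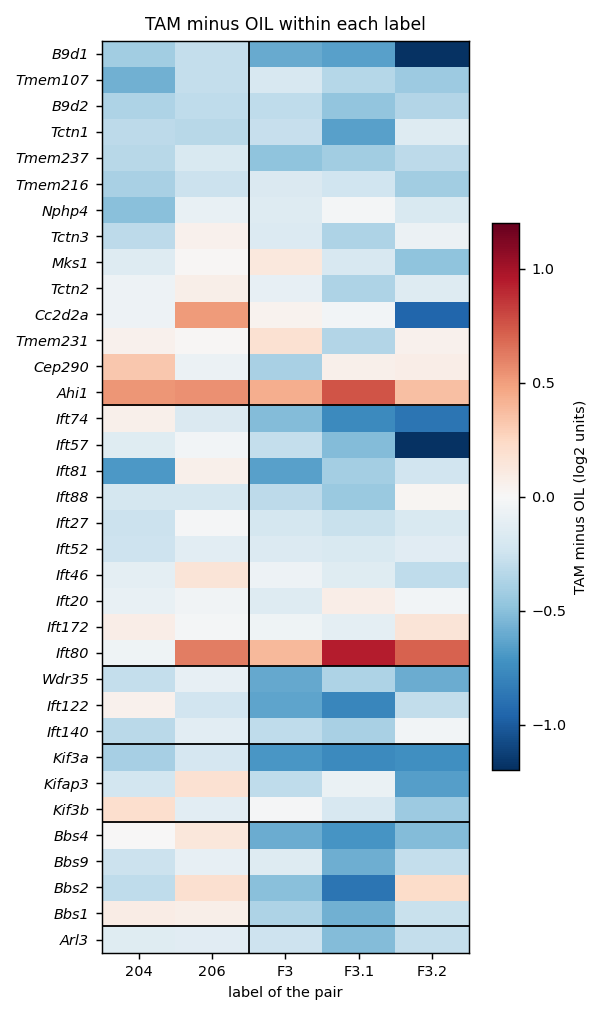
Difference TAM minus OIL in log2 units within each label (columns) for the 35 tested ciliary genes (rows), ordered by role and change, blue for lower and red for higher in TAM. Black lines part the roles and the labels 204 and 206 from F3, F3.1 and F3.2. Ahi1 is red in all 5 columns and Ift80 in 4, while B9d1 and Ift57 have their deepest blue in F3.2.

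Whether the response itself differed between the labels 204 and 206 and the F3, F3.1 and F3.2 labels was tested on the pair differences. No ciliary gene was called, as for 0% of all genes, and 5 of the 35 had an unadjusted p under 0.05, against 5.51% of all genes. They were Bbs4, Ift74, Bbs1, Kif3a and Ift122. Bbs4 had the smallest p, with a mean TAM minus OIL difference of 0.071 in 204 and 206, against -0.61 in the F3 labels (unadjusted p = 0.00150, limma adjusted p = 0.711). Kif3a differed by -0.30 in 204 and 206 and by -0.73 in the F3 labels (limma adjusted p = 0.872).

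Shares of the sum of squares over the 10 arrays were computed for each of the 35 ciliary genes. The median share was 52.1% for the label, with 4 degrees of freedom, 28.5% for the treatment, with 1, and 13.4% for the rest. Each median was taken separately, so the medians need not belong to the same gene or add up to the whole. These shares are not per degree of freedom and do not rank label against treatment. Over all tested genes the medians were 59.4%, 9.81% and 21.9%.

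Levels of ciliary genes were mostly higher in 204 and 206 than in the F3 labels, on the means of each label. This held for 31 of 35 genes with a median difference of 0.17 log2 units, against 6233 of 12736 genes and a median of -0.0043 in all, and 3 were called higher by limma, against 1.35% of all genes, and none lower, against 1.25%. Called were Ahi1, Cc2d2a and Tmem237, all of the transition zone. The labels do not say whether F3, F3.1 and F3.2 are separate leukemias, and if they are not, these p-values treat related samples as independent. Every array of 204 and 206 lay above every F3 array for these and for Ift172 and Kifap3, a pattern of 6.92% of all genes, and for none did every array lie below, against 4.57%.

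Markers of other cells differed between the same labels. The mean of the stromal and endothelial markers was 5.90 to 6.52 in 204 and 206, against 4.99 to 5.81 in the F3 labels, without overlap, and 3 of the 4 tested were higher in 204 and 206. Col1a2, a fibrillar collagen gene, differed by 3.11 without overlap and Pdgfrb, a growth factor receptor of stromal cells, by 1.89. The mean of the myeloid markers was 4.86 to 5.65 in 204 and 206, against 5.40 to 7.06 in the F3 labels, and 5 of the 6 tested were lower in 204 and 206, S100a8 by -1.99 and S100a9 by -1.78. T cell markers had means of 10.59 to 10.93 in 204 and 206, against 10.70 to 11.15 in the F3 labels. Of the 8 tested, 6 were higher and 2 lower in 204 and 206, with a median difference of 0.17. Cd8a was one of the lower ones, at -1.50. None of these markers was called, and their part in the ciliary differences between labels was not tested.

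Ahi1 lay between 9.62 and 10.86 in the arrays of 204 and 206, against 7.41 and 8.16 in the F3 labels. The ranges were far apart, and the difference of 2.53 (5.78-fold, limma adjusted p = 0.00823) was the largest among the 35 genes. The other Ahi1 probe set, below the limit for dim genes, differed by 0.58. Cc2d2a, a scaffold of the transition zone complex, read 7.30, 6.84, 4.91, 5.47 and 4.61 in TAM, against 7.36, 6.32, 4.87, 5.50 and 5.57 in OIL, in the order of labels used above. The arrays of 204 and 206 were well above the rest, and some F3 values were near the limit for dim genes. The difference between label families was 1.80 (3.49-fold, limma adjusted p = 0.0366). Tmem237 differed by 0.69 (limma adjusted p = 0.0247). Kifap3 was 7.73 to 8.29 in 204 and 206, against 6.09 to 7.43 in the F3 labels, a difference of 1.09 that was not called (limma adjusted p = 0.173), with 1.36 from its other probe set. At the low end stood Tctn3 at -0.24, Tctn1 at -0.13 and Nphp4 at -0.07, none called.

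**Figure D4:**
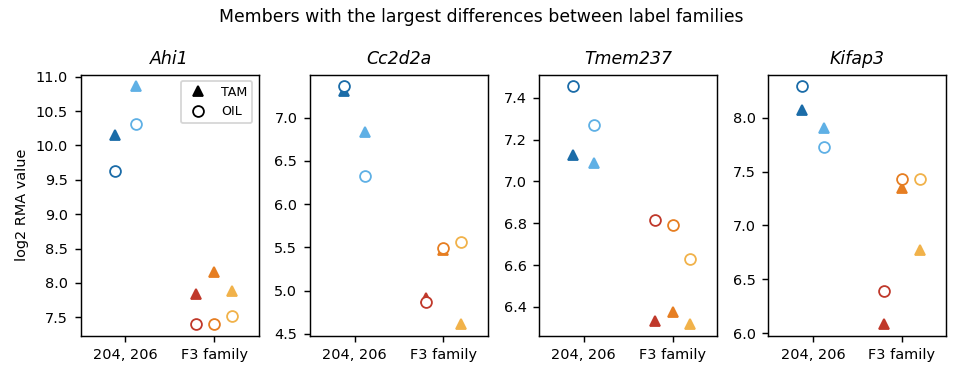
Log2 RMA values of the 4 ciliary genes that differed most between label families, with 204 and 206 left and F3, F3.1 and F3.2 right in each panel, in that order and with a colour per label. Triangles are TAM arrays and open circles OIL arrays. In each gene all 4 arrays of 204 and 206 lie above all 6 arrays of the F3 labels.

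Other lists of ciliary genes, chosen like the members with earlier results known, were described in the same way. Of 36 further genes of the transition zone, IFT, dynein-2, BBSome and lipid cargo system, 33 were tested, 20 were lower and 13 higher in TAM, and their median difference was -0.05. TAM was lower in all 5 pairs for 6 of the 33, among them Ttc26 of IFT-B (-0.56), where 13.5% of all genes were. It was higher in all 5 for 4, among them Ttc21b of IFT-A (0.39) and Ttc30a1 of IFT-B (0.36), where 8.4% of all genes were. None was called without a block, and with it Wdr34 alone was called, 1 of 33 where 3.38% of all genes were. Wdr34 is an intermediate chain of the dynein-2 motor that drives return transport. It averaged 6.09 ± 0.44 in TAM and 6.50 ± 0.46 in OIL (SD, n = 5 each), a difference of -0.41 (limma adjusted p = 0.550 without a block, 0.0262 with it). Tmem218, a transition zone membrane protein, had the largest difference of that list at -0.58 and was not called. Of 18 genes for basal body docking 8 were higher and 10 lower, with a median of -0.05 and none called, and the largest difference was 0.31 for the distal appendage gene Cep83. Among 6 tested genes of cilium disassembly (3 higher) and 7 of the RFX and FOXJ1 factors (4 higher) none was called. The largest differences there were -0.21 for Nek2, a centrosomal kinase, and 0.29 for Rfx3, an RFX factor that drives ciliary genes. Motile cilium genes, which serve as a control list, lay between 4.42 and 4.61 on average on every array, near the limit for dim genes, and none of the 10 tested was called.

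Genes of the Hedgehog pathway, which the cilium serves, were tested for 10 of 15, with 5 higher and 5 lower and a median of 0.02. None was called without a block and 2 of the 10 were with it, both higher in TAM, where 3.38% of all genes were called in either direction. Gli1, a transcription factor and target of the pathway, read 8.71, 7.72, 5.46, 7.24 and 7.22 in TAM, against 6.10, 5.92, 4.90, 5.73 and 6.03 in OIL. Every label had more in TAM, and F3 was the lowest in both groups. Gli1 averaged 7.27 ± 1.18 in TAM and 5.74 ± 0.49 in OIL (SD, n = 5 each), a difference of 1.53 (2.89-fold, limma adjusted p = 0.235 without a block, 0.0271 with it). Cdon, a co-receptor for Hedgehog ligands, read 10.37, 9.27, 7.61, 8.35 and 9.08 in TAM, against 8.48, 8.62, 6.91, 6.77 and 6.97 in OIL. It was higher in TAM for every label by amounts that varied widely, on average by 1.38 (limma adjusted p = 0.314 without a block, 0.0262 with it), but its dimmer probe set differed by only 0.20. The receptor Ptch1, itself a target, and the signal transducer Smo were looked at after these values were seen. Ptch1 differed by 0.64 without overlap of the groups and Smo by 0.32, both higher in all 5 pairs and not called (limma adjusted p with the block 0.0645 and 0.0734). A dimmer probe set of Ptch1 gave -0.10. The 5 lower genes were Gas1, Evc, Evc2, Boc and Kif7. Gas1 had the largest difference of these, at -0.25, and was lower in all 5 pairs but not called (limma adjusted p with the block 0.115).

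**Figure D5:**
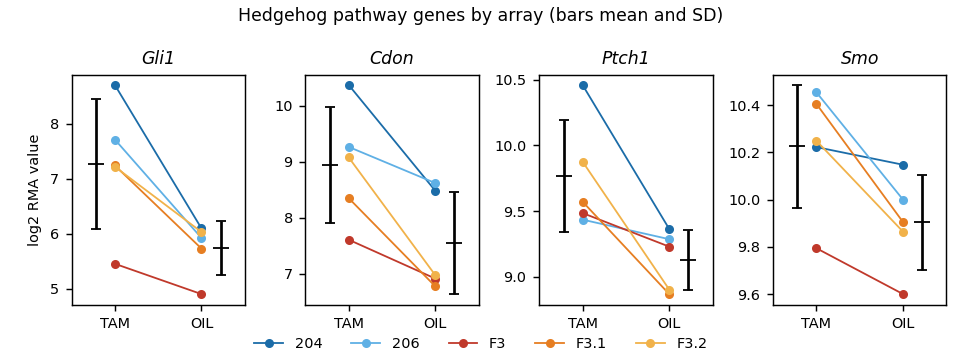
Log2 RMA values of 4 Hedgehog pathway genes on each array, TAM left and OIL right, with lines joining arrays of a label and bars for mean and SD (n = 5). Each panel has its own axis range. TAM is the upper end of all 5 lines in each gene. The tested genes of the pathway that were lower in TAM are not drawn.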

How the data were processed

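RNA of sorted leukemic cells was hybridised to oligonucleotide arrays, from 200 ng of total RNA per the labels' protocols. The authors deposited log2 values, which the submitters' processing notes tie to RMA without a version. RMA normalizes arrays by quantiles, so a shift common to all genes is lost. Probe sets with 1 symbol numbered 34958 of 45101, and named 18194 genes. The lowest 30% of genes by mean were left out. TAM and OIL were compared with limma 3.58.1 (lmFit, eBayes), run under R 4.3.3, and tables were read with data.table (version 1.17.8). The fit had no block (residual degrees of freedom 8), and the alternative had the label as a block (4). F3.1 and F3.2 were matched by dropping a final number that differs between groups. The deviations from the group mean correlated between both arrays of a label, at 0.764 (204), 0.745 (206), 0.804 (F3), 0.585 (F3.1) and 0.184 (F3.2), all above the limit of 0.1, so the labels were taken as pairs. In 3 arrays the best match was another label, so passing that limit does not show that arrays of a label share a leukemia. Label families were compared on the 5 label means, and responses on the 5 pair differences, which takes F3, F3.1 and F3.2 as independent although the labels do not state it. The fits were tested on simulated data drawn with independent arrays and labels, which cannot show what related labels do to the p-values. Values in every array are given for genes called with or without the block, those at an unadjusted p under 0.05 that moved one way in all 5 pairs, the largest change of each role and the 3 highest and lowest between families. Of other lists, called genes or else the largest change are named, with some further subunits and Hedgehog genes added after the data were seen. Members and lists were chosen with earlier results of these data known.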

Additional observations from a re-analysis of the deposited data

Results flagged for a closer look

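In 70 groups of 5 arrays examined, 3 held an array far from the other 4 by Dixon's gap test, which chance gives in about 1 of 20 groups. B9d2 had 8.01 in TAM F3.1, with the nearest TAM array at 8.23, a gap of 0.904 of the group's range. Tmem216 had 7.57 in OIL F3, with the nearest OIL array at 7.81, a gap of 0.746 of the range. Ift52 had 8.22 in OIL 204, with the nearest OIL array at 8.08, a gap of 0.885 of the range.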

How the results depend on the processing

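The number of ciliary genes called by limma rested on the block and on single labels. It was 0 without a block, where 0.471% of all genes were called, and 6 with the replicate block, where 3.38% were. It was 1 (B9d2) with a 50% filter on dim genes, 1 (B9d2) with a further quantile normalization and 4 (B9d1, B9d2, Tmem237 and Tmem216) with the block and the mean of probe sets, where Ahi1, Tmem107 and Kif3a were not called. With the block and without a label it was 1 each without 204 (Ift80), 206 (Kif3a) or F3 (Ahi1), 0 without F3.1 and 3 without F3.2. The number at an unadjusted p under 0.05 was 15, and 10 to 17 without single arrays, 17 to 23 with the block and without a label, and 3 without F3, F3.1 and F3.2. Over all 12736 genes, 670 higher and 986 lower in TAM reached it without a block, and 1193 and 1654 with the block on all labels. The rise of the count with the block is thus shared by all genes, and the shares for the other settings are not given here. The median of -0.23 was -0.32 to -0.17 without single arrays and -0.089 without the 3 F3 labels. Between families, 3 genes were called, 1 to 3 without a label and 1 (Ahi1) on OIL arrays alone. Leaving a label out of the block, leaving out label families and joining the block with the mean of probe sets were chosen after seeing the data, and the first of these leave fewer arrays. Directions turned for Tctn3 with the mean of probe sets (0.010, with the block too), for Bbs4 without the F3 labels (0.071), for Kifap3 without TAM F3 (0.068) and for Nphp4 between families on OIL arrays (0.016) or without F3.1 (0.012). Cc2d2a turned without TAM F3 (0.13), TAM F3.2 (0.21), OIL 204 (0.26) or OIL 206 (0.0039), without F3.2 in the block (0.12) and without the F3 labels (0.23). Without single arrays, Cc2d2a ranged from -0.47 to 0.26 and Kifap3 from -0.48 to 0.068. Beyond the 6 genes and Wdr34, Gli1 and Cdon, the block changed no call in the lists given. The causes were otherwise not tested. Ppp3r1 stayed between -2.27 and -1.88 without single arrays.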
